A study of Homo sapiens with 24 samples.

Results

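The genes described here are 31 transcripts reported as targets of the miR-17 family of microRNAs, among them cell cycle inhibitors, cyclins, kinases, transcription regulators, receptors and autophagy genes. A gene was measured by a probe set that carried its symbol and no other, and where a gene had several such probe sets the one with the highest mean over all arrays stood for it. This gave 28 of the 31 genes, out of 18417 genes with a probe set of their own. NCOA3, PKD2 and TUSC2 had no such probe set and have no value here.

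A microRNA pairs with messenger RNAs mainly through its seed, a short run of bases near its 5′ end, and lowers the stability or translation of the transcripts it binds. The miR-17 family is known for promoting proliferation by holding down CDKN1A and RB family members, which brake entry into S phase. Its reported targets also include E2F factors, some of which drive that entry. Inhibiting such a microRNA is known to raise transcripts that it destabilises, while targets held down at translation can keep their RNA level.

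The cells were MCF10A, a widely used line of non-tumorigenic human mammary epithelium, transfected with Oligofectamine and 1 of 3 oligonucleotides. A non-targeting oligonucleotide served as control, si-miR-20a was aimed at miR-20a, and si-miR-671 was aimed at miR-671-5p and is used below as another comparator. RNA was collected at 0, 30, 60 or 120 min of EGF and hybridised to Affymetrix Human Gene 1.0 ST arrays, with 2 arrays for each of the 12 combinations. All groups shared a growth medium that held EGF, insulin, cholera toxin, hydrocortisone and horse serum. The labels call the replicates biological, with nothing on whether they were separate transfections, so p-values measure the spread between these arrays. The arrays did not measure mature microRNAs, so the level of miR-20a left after transfection is unknown.

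The 6 members of the miR-17 family share 1 seed, shown in capitals as bases 2 to 8 of each mature sequence, while miR-671-5p has another. They are printed because the genes are reported targets of the family as a whole, while the oligonucleotide was aimed at miR-20a. Of its relatives, miR-17-5p, miR-20b-5p and miR-106a-5p each equal miR-20a at 21 of 23 positions. Positions were counted from the 5′ end, and miR-671-5p equals miR-20a at 9 of them.
hsa-miR-20a-5p: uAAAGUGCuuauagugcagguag
hsa-miR-17-5p: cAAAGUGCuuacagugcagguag
hsa-miR-20b-5p: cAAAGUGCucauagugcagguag
hsa-miR-106a-5p: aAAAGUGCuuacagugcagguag
hsa-miR-93-5p: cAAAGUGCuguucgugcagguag
hsa-miR-106b-5p: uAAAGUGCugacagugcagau
hsa-miR-671-5p: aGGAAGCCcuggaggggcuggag

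The sequences and positions are those of RefSeq on GRCh38.p14. Mature miR-17-5p lies at chr13:91350618-91350640 and miR-20a-5p at chr13:91351072-91351094, both on the plus strand within the MIR17HG host transcript. The minus strand of chromosome 7 holds miR-93-5p at chr7:100093815-100093837 and miR-106b-5p at chr7:100094043-100094063, in an intron of MCM7. The minus strand of the X chromosome holds miR-20b-5p at chrX:134169850-134169872 and miR-106a-5p at chrX:134170244-134170266. The comparator's mature sequence lies at chr7:151238449-151238471 on the plus strand.

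The deposited values were log2 levels with array medians from 6.56 to 6.57, and replicate arrays correlated at 0.973 to 0.992 over all probe sets. MCF10A is a basal-type line, and the measured basal keratinocyte markers averaged 11.17 to 11.47 per array, against 8.24 to 8.51 for luminal, 6.96 to 7.40 for mesenchymal and 6.69 to 7.19 for blood and endothelial markers. Single markers varied within a list. Their means ran from 10.49 to 12.67 for basal, 6.07 to 11.18 for luminal, 5.11 to 11.47 for mesenchymal and 4.28 to 10.25 for blood and endothelial markers. The highest luminal and mesenchymal markers thus lay within the basal range. KRT17 and TP63 of the basal list had no probe set of their own. In si-miR-20a against control, 2 of 5 basal and 1 of 6 luminal markers were called higher early, and late 1 basal, 1 luminal, 1 mesenchymal and 1 blood or endothelial marker were higher and 1 mesenchymal marker lower. Against si-miR-671, 3 of 5 basal markers were higher early and 1 of 6 mesenchymal markers late, with no other marker called. The mean basal level was 11.29 to 11.36 on early control arrays and 11.42 to 11.44 on early si-miR-20a arrays, the luminal one 8.34 to 8.43 and 8.44 to 8.51, and the ranges of all 4 lists overlapped late. The part of these markers in the results below was not tested. Late arrays of si-miR-671 stood apart from its early ones: against control, 546 probe sets were called at early times and 2999 at late times. Late comparisons with si-miR-671 are therefore given beside those with control.

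Against control, 5 members were higher and 2 lower in si-miR-20a at early times, the 0 and 30 min arrays. A call was a Benjamini-Hochberg adjusted p under 0.05 from limma over 19460 probe sets, of which 4.79% were called higher and 7.17% lower in this comparison. At late times, 60 and 120 min, 9 members were higher and 2 lower, beside 8.95% and 7.75% of all probe sets. Fitted without the si-miR-671 arrays, the late calls of MASTL (adjusted p = 0.0503), LIMK1 (0.080), HIF1A (0.085) and CRIM1 (0.092) did not pass. Fitted on the control and si-miR-20a arrays of a period alone, the early calls were kept except that of HIF1A (0.086), and late those of ZNFX1, CDKN1A and MAP3K5 were kept. Members' transcripts were mostly well expressed, with 27 of the 28 above the median level of 6.55, and calls are more frequent among brighter probe sets. Among probe sets above that median, 6.8% were called higher early and 12.4% late in the same fit, and 10.2% and 11.1% lower. The members' median log2 difference was 0.09 early and 0.08 late, and that of all probe sets was 0.01 at both.

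Against si-miR-671, 5 members were higher and 2 lower at early times, beside 2.74% and 4.77% of all probe sets. At late times 6 members were higher and 0 lower, beside 0.92% and 0.206% of all probe sets. Fitted on the arrays of these transfections and times alone, 0 members were called at either period, and of all probe sets 0 were called early and 2 late, with 3853 and 1452 at an unadjusted p under 0.05. There the adjusted p of ZNFX1 was 0.068 early and 0.17 late. Of the brighter probe sets, 4% were higher and 6.9% lower early, and 1.29% and 0.294% late. Between si-miR-671 and control, 1 member was higher and 0 were lower early, beside 1.36% and 1.44%, and 2 were higher and 6 lower late, beside 7.04% and 8.37%. By group ranges, si-miR-20a did not overlap control in 8 members upwards and 3 downwards early (8.47% and 10.6% of all probe sets) and in 3 and 0 late (7.66% and 6.33%). It did not overlap si-miR-671 in 10 and 3 early (6.84% and 8.57%) and in 7 and 0 late (3.55% and 1.31%), and si-miR-671 did not overlap control in 1 and 3 early (6.11% and 6.54%) and in 0 and 5 late (8.27% and 9.15%). Both sets of si-miR-20a comparisons use the same si-miR-20a arrays, so a member high on those arrays is high in both. The members were chosen with earlier results of these data known, so their counts beside the background are a description and no test.

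**Figure D1:**
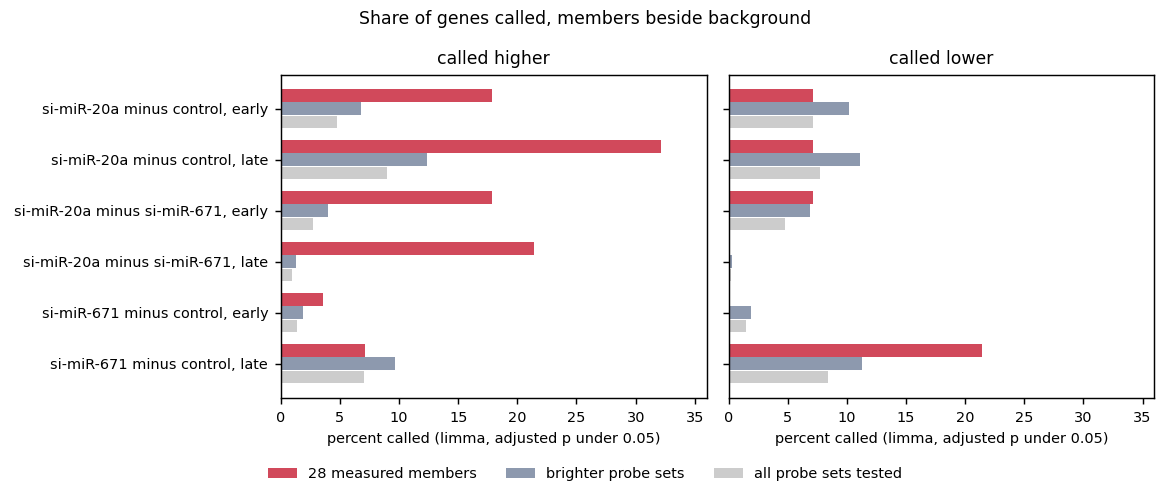
Percent of the 28 measured members, of probe sets above the median level and of all probe sets tested that 1 limma fit called higher (left) or lower (right) in each comparison. The members' bar exceeds both backgrounds for higher calls in the 4 comparisons of si-miR-20a and, through 1 member, in si-miR-671 against control early, and for lower calls in si-miR-671 against control late and, through 2 members, in si-miR-20a against si-miR-671 early. The members were chosen with earlier results of these data known, so an excess is no test.

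CDKN1A, ZNFX1, LIMK1, CCND1 and CCND2 were the members higher in si-miR-20a than in control at both early and late times. ZNFX1 and CCND2 showed the cleanest separation: on each, the 8 si-miR-20a arrays lay above all other 16 arrays. Of all probe sets, 0.277% had this pattern upwards and 0.0206% downwards.

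ZNFX1, a zinc finger helicase of the interferon-induced antiviral response, had the largest differences of any member. In si-miR-20a its replicate log2 levels were 9.14 and 9.09 at 0 min, 9.12 and 9.13 at 30 min, 9.20 and 9.25 at 60 min, and 9.25 and 9.32 at 120 min. In control they were 8.44 and 8.31, 8.39 and 8.51, 8.56 and 8.61, and 8.68 and 8.56 at the same times. In si-miR-671 they were 8.25 and 8.27, 8.28 and 8.28, 8.47 and 8.54, and 8.53 and 8.74. No array of either comparator reached the lowest si-miR-20a array. The difference from control was 0.71 ± 0.0586 (SE, n = 4 arrays against 4) early and 0.65 ± 0.0586 late, which is 1.63-fold and 1.57-fold, with adjusted p of 3.7e-06 and 4.4e-06. Against si-miR-671 it was 0.85 early and 0.68 late (adjusted p = 4.8e-06 and 8.7e-05). All 4 calls held when each array in turn was left out.

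**Figure D2:**
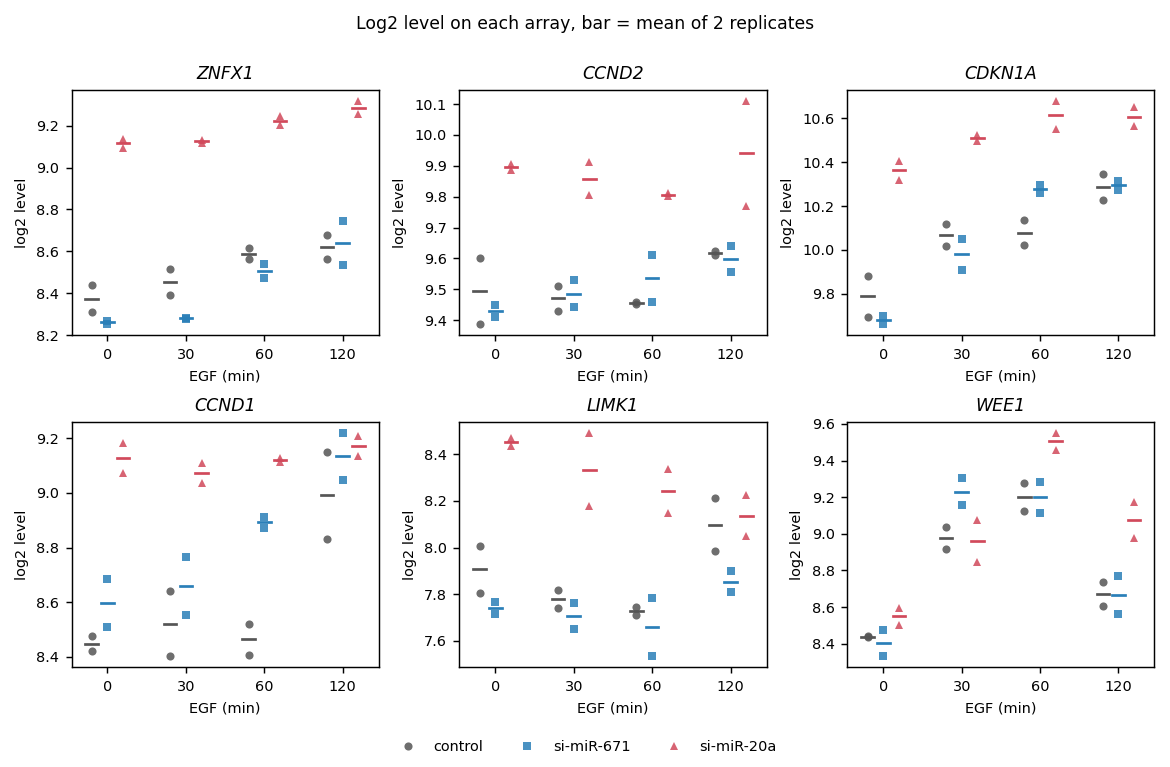
Log2 level of 6 members on each of the 24 arrays by minutes of EGF, with a bar at the mean of the 2 replicates. Circles are control, squares si-miR-671 and triangles si-miR-20a. For ZNFX1 and CCND2 every triangle lies above every other symbol, while for CCND1 and LIMK1 the symbols meet at 120 min.

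CDKN1A encodes p21, an inhibitor of cyclin-dependent kinases. Its si-miR-20a levels were 10.32 and 10.40 at 0 min, 10.52 and 10.50 at 30 min, 10.55 and 10.68 at 60 min, and 10.57 and 10.65 at 120 min. The control levels were 9.88 and 9.70, 10.02 and 10.12, 10.02 and 10.13, and 10.35 and 10.23. The si-miR-671 levels were 9.66 and 9.70, 9.91 and 10.05, 10.26 and 10.30, and 10.31 and 10.27. In all 3 transfections levels were higher at 120 min than at 0 min, and within each period the si-miR-20a arrays did not overlap either comparator. CDKN1A was 1.42-fold higher than in control early (0.51 ± 0.0616, adjusted p = 8.4e-05) and 1.35-fold late (0.43 ± 0.0616, adjusted p = 0.00025). Against si-miR-671 it was higher by 0.61 early (adjusted p = 0.00018) and 0.33 late (adjusted p = 0.021). The late call against si-miR-671 was kept only without replicate 1 of si-miR-20a at 60 or at 120 min, and was lost without any of the other 6 arrays (adjusted p 0.065 to 0.096).

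The other braking genes of this group are the pocket proteins, which hold E2F factors inactive. RBL1, which encodes p107, was higher than in control at late times by 0.35 ± 0.0726 (adjusted p = 0.0042) and did not pass early (0.10). Its control levels at 120 min, 6.78 and 6.66, were the lowest of the 24 arrays, and the si-miR-20a levels there were 7.23 and 7.44. The late difference was 0.61 (adjusted p = 0.0021) at 120 min and 0.08 (adjusted p = 0.76) at 60 min. RBL1 was also higher in si-miR-671 than in control, by 0.29 early (adjusted p = 0.043, lost without each of the 8 arrays in turn, 0.051 to 0.20) and by 0.31 late (adjusted p = 0.009), of which 0.16 (adjusted p = 0.40) was seen at 60 min and 0.47 (adjusted p = 0.015) at 120 min. It was not called between the oligonucleotides, with -0.20 early and 0.04 late. RB1, the retinoblastoma gene, was not called in any comparison of the fit over all 19460 probe sets. Its difference from control was -0.17 early (95% interval -0.31 to -0.02), where its si-miR-20a arrays lay below all control arrays, and -0.02 late. With dim probe sets left out, RB1 was called lower than in si-miR-671 early (-0.20, adjusted p = 0.046) and lower in si-miR-671 than in control late (-0.18, 0.044). Its change from early to late against si-miR-671, 0.36, was then called (0.032), and with an intensity trend (0.040). RBL2, which encodes p130, was likewise not called, at -0.05 and 0.05.

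D-type cyclins activate CDK4 and CDK6, which phosphorylate the pocket proteins. CCND2 had si-miR-20a levels of 9.89 and 9.91 at 0 min, 9.91 and 9.80 at 30 min, 9.81 and 9.80 at 60 min, and 9.77 and 10.11 at 120 min. In control they were 9.60 and 9.39, 9.51 and 9.43, 9.45 and 9.46, and 9.62 and 9.61. In si-miR-671 they were 9.41 and 9.45, 9.44 and 9.53, 9.46 and 9.61, and 9.64 and 9.56. CCND2 was 1.32-fold higher than in control early (0.40 ± 0.0732, adjusted p = 0.0025) and 1.26-fold late (0.34 ± 0.0732, adjusted p = 0.0053). Against si-miR-671 it was higher by 0.42 early (adjusted p = 0.0042), and the late difference of 0.31 did not pass (adjusted p = 0.061) although those arrays did not overlap. That late value passed with dim probe sets left out (0.024) or an intensity trend (0.024).

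CCND1 followed another course. Its si-miR-20a levels were flat, at 9.18 and 9.07, 9.11 and 9.04, 9.13 and 9.11, and 9.21 and 9.14 over the 4 times. For control they read 8.48 and 8.42 at 0 min, 8.64 and 8.40 at 30 min, 8.52 and 8.41 at 60 min, and 9.15 and 8.83 at 120 min. For si-miR-671 they read 8.68 and 8.51, 8.77 and 8.55, 8.91 and 8.87, and 9.05 and 9.22. The comparators thus met the si-miR-20a level at 120 min. The difference from control was 0.61 ± 0.0826 early (1.53-fold, adjusted p = 0.0002) and 0.42 ± 0.0826 late (adjusted p = 0.0027). The late value joined 0.66 at 60 min (adjusted p = 0.0036) with 0.18 at 120 min (adjusted p = 0.41). Against si-miR-671 the difference was 0.47 early (adjusted p = 0.0043) and 0.13 late, where it did not pass. The change from early to late was not called against control (-0.20, adjusted p = 0.88) or against si-miR-671 (-0.34, adjusted p = 0.14).

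Among genes of mitotic entry, WEE1, the kinase that holds CDK1 inactive, and MASTL, the Greatwall kinase, were called against control at late times and not early, WEE1 by its brightest probe set. For WEE1 the si-miR-20a levels were 8.60 and 8.50 at 0 min, 8.85 and 9.08 at 30 min, 9.55 and 9.46 at 60 min, and 8.98 and 9.17 at 120 min. In control they were 8.44 and 8.44, 9.04 and 8.92, 9.28 and 9.13, and 8.60 and 8.74. In si-miR-671 they were 8.33 and 8.48, 9.30 and 9.16, 9.12 and 9.28, and 8.77 and 8.56. At 30 min si-miR-20a overlapped control and both si-miR-671 arrays lay above them, and the si-miR-20a arrays were above the others at 60 and at 120 min. WEE1 was 1.28-fold higher late than in control (0.35 ± 0.0798, adjusted p = 0.0069) and than in si-miR-671 (0.36, adjusted p = 0.047), with early differences of 0.05 and -0.06. At 60 min alone the difference from control was 0.30 (adjusted p = 0.14). The call against si-miR-671 was kept only without replicate 1 of si-miR-20a at 120 min, and without each other array the adjusted p was 0.068 to 0.21. The change from early to late was not called, at 0.30 against control (adjusted p = 0.73) and 0.42 against si-miR-671 (adjusted p = 0.076). The latter passed with dim probe sets left out (0.035) or an intensity trend (0.042).

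WEE1 had 2 further probe sets, each assigned through a single complementary DNA record. One differed from control by 0.43 early, where it was called higher (adjusted p = 0.045), and by 0.33 late (adjusted p = 0.11), close in size to the late 0.35 of the brightest. The other was not called, at 0.08 early and 0.002 late (adjusted p = 0.99). Against si-miR-671 late neither of these 2 probe sets was called, at 0.19 and 0.19 (adjusted p = 0.62 and 0.45). For MASTL the control levels at 120 min, 6.18 and 6.11, were the lowest of the 24 arrays. In si-miR-671 it differed from control by 0.14 at 60 min and 0.40 at 120 min (adjusted p = 0.61 and 0.12). The late value there, 0.27, was called with dim probe sets left out (0.0495). Between the oligonucleotides MASTL differed by 0.05 at 60 min and 0.13 at 120 min (0.93 and 0.61). In si-miR-20a MASTL was higher than in control late by 0.36 ± 0.0981 (adjusted p = 0.021), with 0.18 at 60 min and 0.53 at 120 min. That call was lost without replicate 1 of control at 60 min, replicate 2 of control at 120 min, or replicate 2 of si-miR-20a at 60 or at 120 min (adjusted p 0.061 to 0.10).

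Of the remaining genes in this group, E2F3, an activating E2F factor, E2F5, which acts with the pocket proteins, and FBXO31, a ubiquitin ligase subunit that acts on cyclin D1, were not called between transfections. Their early and late differences from control were 0.02 and 0.08 for E2F3, -0.26 and -0.08 for E2F5, and 0.20 and 0.03 for FBXO31. The early E2F5 value passed with dim probe sets left out (adjusted p = 0.048).

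Among the kinases, LIMK1, which phosphorylates the actin-severing protein cofilin, was higher in si-miR-20a. Its levels there were 8.44 and 8.47 at 0 min, 8.49 and 8.18 at 30 min, 8.34 and 8.15 at 60 min, and 8.23 and 8.05 at 120 min. The control levels were 8.01 and 7.81, 7.74 and 7.82, 7.71 and 7.75, and 8.21 and 7.98. The si-miR-671 levels were 7.71 and 7.77, 7.65 and 7.76, 7.53 and 7.78, and 7.81 and 7.90. The early arrays did not overlap, and at 120 min si-miR-20a and control did. LIMK1 was 1.47-fold higher than in control early (0.55 ± 0.0878, adjusted p = 0.00083) and 1.59-fold higher than in si-miR-671 (0.67, adjusted p = 0.0008). Late differences were 0.28 against control (adjusted p = 0.043) and 0.43 against si-miR-671 (adjusted p = 0.028). The former joined 0.52 at 60 min with 0.04 at 120 min, and the latter 0.58 with 0.28. The late call against control was kept only without replicate 1 of control at 120 min or replicate 2 of si-miR-20a at 60 or 120 min (otherwise 0.091 to 0.16). That against si-miR-671 was kept only without replicate 2 of si-miR-671 at 60 min, replicate 2 of si-miR-20a at 60 min or replicate 1 of si-miR-20a at 120 min (otherwise 0.052 to 0.15).

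MAP3K5, the stress kinase ASK1, moved the other way. Its control levels were 8.46 and 8.39 at 0 min, 8.60 and 8.51 at 30 min, 8.60 and 8.69 at 60 min, and 8.42 and 8.23 at 120 min. In si-miR-20a they were 8.25 and 7.96, 8.02 and 7.92, 8.27 and 8.05, and 7.85 and 7.86. In si-miR-671 they were 8.39 and 8.28, 8.39 and 8.27, 8.03 and 7.92, and 7.61 and 7.98. The si-miR-20a arrays were below control at every time, and those of si-miR-671 were below it at 30, 60 and 120 min and overlapped it at 0 min. MAP3K5 was lower than in control by a log2 difference of -0.45 ± 0.0892 early (adjusted p = 0.0037) and -0.48 ± 0.0892 late (adjusted p = 0.0018) in si-miR-20a. The early value joined -0.32 at 0 min (adjusted p = 0.23) with -0.59 at 30 min (adjusted p = 0.015). In si-miR-671 it differed by -0.16 early and by -0.60 late (adjusted p = 0.00033). Between the oligonucleotides it was not called, at -0.30 early (adjusted p = 0.058) and 0.12 late. That early value passed with dim probe sets left out (0.028), array weights (0.038) or an intensity trend (0.040). MAPK9, which encodes the kinase JNK2, was lower than in si-miR-671 early, at -0.20 (adjusted p = 0.038), a call kept only without replicate 1 of si-miR-671 at 30 min or replicate 1 of si-miR-20a at 0 min (otherwise 0.064 to 0.15), and its difference from control was -0.13.

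**Figure D3:**
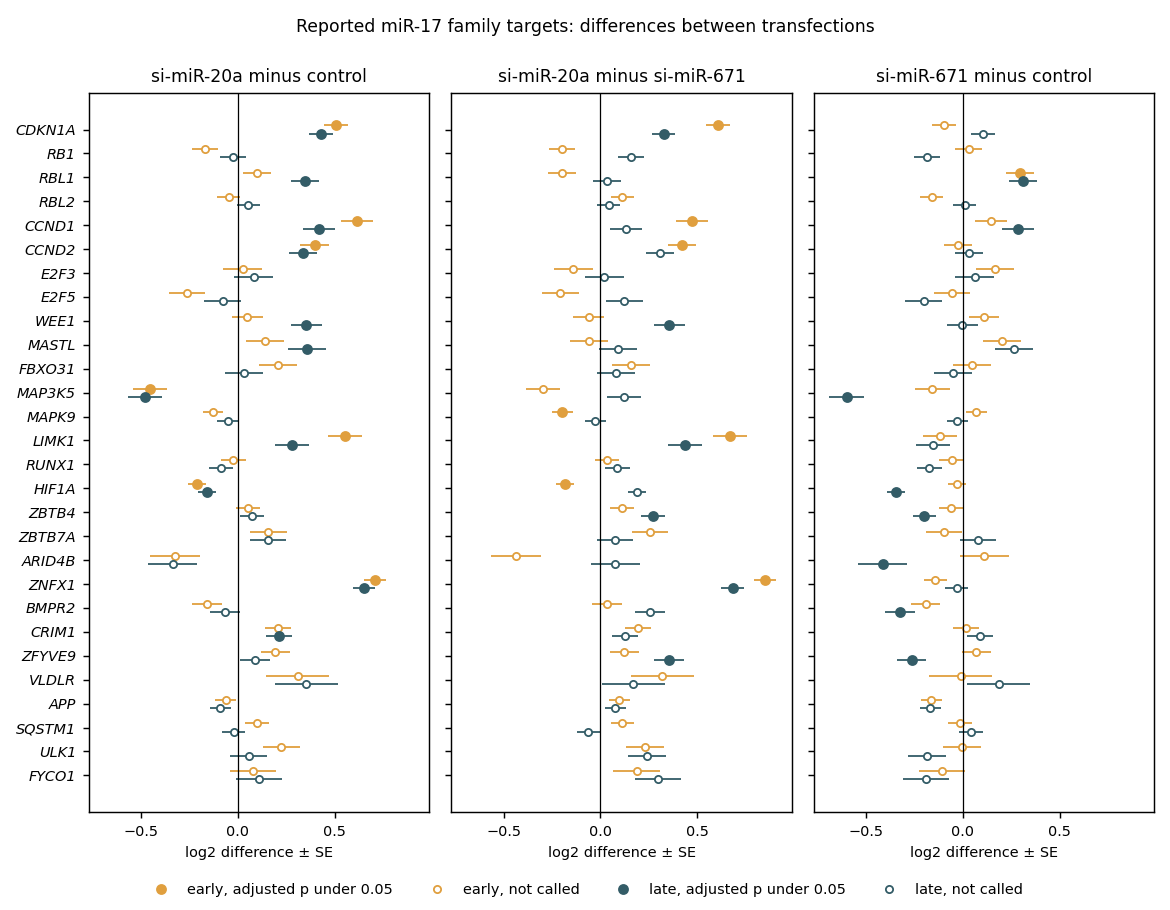
Log2 difference ± SE of the 28 measured members for si-miR-20a minus control, si-miR-20a minus si-miR-671 and si-miR-671 minus control, at early (0 and 30 min) and late (60 and 120 min) times, 4 arrays against 4. Filled points passed an adjusted p of 0.05. ZNFX1, CDKN1A and LIMK1 are filled to the right of 0 in both panels of si-miR-20a at both periods, and HIF1A and MAP3K5 are filled to the left of 0 against control.

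HIF1A, the oxygen-regulated transcription factor subunit, was the member lower in si-miR-20a than in both comparators early. Its si-miR-20a levels were 11.22 and 11.27 at 0 min, 11.15 and 11.20 at 30 min, 11.34 and 11.31 at 60 min, and 11.41 and 11.52 at 120 min. In control they were 11.42 and 11.43, 11.42 and 11.41, 11.57 and 11.56, and 11.52 and 11.57. For si-miR-671 they read 11.39 and 11.44, 11.34 and 11.38, 11.19 and 11.25, and 11.21 and 11.18. The si-miR-20a arrays were lowest at 0 and 30 min, and those of si-miR-671 were lowest at 60 and 120 min.

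In si-miR-20a, HIF1A differed from control by -0.21 ± 0.046 early (adjusted p = 0.0069, and 0.17 at 0 min alone) and -0.16 ± 0.046 late (adjusted p = 0.027), the latter joining -0.24 at 60 min with -0.08 at 120 min. The late call was kept only without replicate 1 of control or replicate 2 of si-miR-20a at 120 min (otherwise 0.056 to 0.086). Against si-miR-671 it was -0.18 early (adjusted p = 0.029, lost without each of the 8 arrays in turn, 0.052 to 0.11) and 0.19 late (adjusted p = 0.068). The late difference from si-miR-671 passed with an intensity trend (0.0049) or dim probe sets left out (0.022). At 120 min alone it was 0.27 (adjusted p = 0.046). In si-miR-671, HIF1A was lower than in control late, at -0.35 (adjusted p = 0.00013), and differed by -0.03 early.

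HIF1A was also the 1 member whose difference between si-miR-20a and si-miR-671 changed from early to late, by 0.37 ± 0.0651 (adjusted p = 0.018), beside 1.03% of all probe sets with a called rise and 0.298% with a called fall. Against control 0 members were called for such a change, beside 0.00514% of all probe sets higher and 0% lower, and 3 members had an unadjusted p under 0.05, as had 5.94% of all probe sets. Against si-miR-671 10 members had one, beside 18.2%. The HIF1A change was not called without replicate 2 of si-miR-671 at 0 min (adjusted p = 0.055) or at 60 min (0.0502), without replicate 1 of si-miR-20a at 30 min (0.053) or at 60 min (0.065), or with only the arrays compared (0.10).

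**Figure D4:**
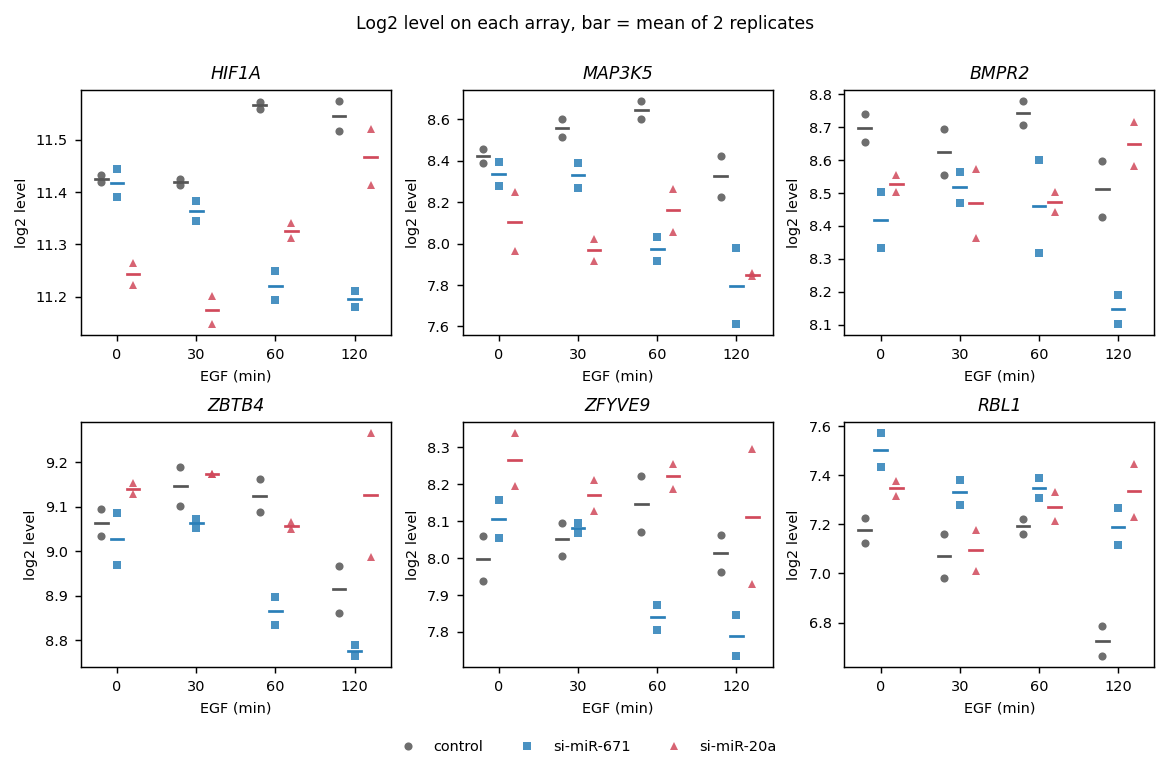
Log2 level of 6 members on each of the 24 arrays by minutes of EGF, with a bar at the mean of the 2 replicates and symbols for the 3 transfections. HIF1A triangles (si-miR-20a) are lowest at 0 and 30 min, squares (si-miR-671) are lowest at 60 and 120 min in HIF1A, ZBTB4 and ZFYVE9, and control circles are lowest for RBL1 at 120 min.

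The other transcription regulators were not called between si-miR-20a and control. ZBTB4, a methyl-DNA binding repressor, differed from control by 0.05 early and 0.07 late and was higher than in si-miR-671 late by 0.27 (adjusted p = 0.049). Its late si-miR-671 levels of 8.83, 8.90, 8.79 and 8.76 lay below every si-miR-20a array, and it was lower in si-miR-671 than in control late, at -0.20 (adjusted p = 0.041). The first of these calls was kept only without replicate 1 of si-miR-20a at 120 min (otherwise 0.10 to 0.19), and the second only without replicate 1 of control at 120 min (otherwise 0.072 to 0.13). ARID4B, a chromatin protein that binds RB1, was lower in si-miR-671 than in control late, at -0.41 (adjusted p = 0.04), with -0.61 at 60 min and -0.21 at 120 min. That call was kept only without replicate 1 of si-miR-671 at 60 min or its replicate 2 at 120 min (otherwise 0.076 to 0.16), and in si-miR-20a ARID4B differed from control by -0.32 early (adjusted p = 0.12) and -0.34 late (0.090). Its early difference from si-miR-671 was -0.44 (adjusted p = 0.051), which passed with the replicate block (0.048), quantile normalization (0.049), array weights (0.040), an intensity trend (0.033) or dim probe sets left out (0.025). RUNX1, a transcription factor, and ZBTB7A, a repressor, were not called between transfections, with differences from control of -0.02 and -0.09, and of 0.16 and 0.16. With dim probe sets left out, RUNX1 was called lower in si-miR-671 than in control late, at -0.17 (adjusted p = 0.043).

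Among receptors and BMP or TGF-beta proteins, CRIM1, a transmembrane BMP-binding protein, was higher than in control late by 0.21 ± 0.0667 (adjusted p = 0.04) and by 0.21 early, where it did not pass (adjusted p = 0.056). The early value passed with dim probe sets left out (0.026), array weights (0.033) or an intensity trend (0.020). Its early difference from si-miR-671, 0.19, was not called but passed with dim probe sets left out (0.045) or an intensity trend (0.040). The late call was kept only without replicate 1 of control at 120 min or replicate 1 of si-miR-20a at 60 or 120 min (otherwise 0.073 to 0.16). ZFYVE9, the SMAD anchor SARA, was higher than in si-miR-671 late by 0.35 (adjusted p = 0.043), and was lower in si-miR-671 than in control late, at -0.27 (adjusted p = 0.03). Its late si-miR-671 levels were 7.87, 7.81, 7.73 and 7.85, below every other array of the series, and its difference between si-miR-20a and control was 0.19 early and 0.09 late. The first call was kept only without replicate 1 or replicate 2 of si-miR-20a at 120 min (otherwise 0.076 to 0.18), and the second only without replicate 1 of control at 60 min, its replicate 2 at 120 min or replicate 2 of si-miR-671 at 120 min (otherwise 0.058 to 0.13).

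BMPR2, the type II BMP receptor, was lower in si-miR-671 than in control late, at -0.32 (adjusted p = 0.01), a call lost without replicate 1 of si-miR-671 at 60 min (0.055). In si-miR-20a it differed from control by -0.16 and -0.07. CCND1 was the other member besides RBL1 to rise in si-miR-671 late, by 0.29 (adjusted p = 0.03), with 0.43 at 60 min and 0.14 at 120 min. That call was kept only without replicate 1 of control at 60 or 120 min or replicate 1 of si-miR-671 at 120 min (otherwise 0.070 to 0.13). VLDLR, a lipoprotein receptor and the dimmest member with a mean of 5.56, and APP, the amyloid precursor protein, were not called in the fit over all arrays. In si-miR-20a VLDLR differed from control by 0.31 early and 0.35 late, and without replicate 1 of si-miR-20a at 120 min the late value was 0.57 (adjusted p = 0.0094). APP differed by -0.06 and -0.09 in si-miR-20a and by -0.16 and -0.17 in si-miR-671, whose arrays lay below control in both periods. The late difference of APP in si-miR-671 had an adjusted p of 0.053, and it passed with the replicate block (0.048), either other normalization (0.044 and 0.048), dim probe sets left out (0.024) or an intensity trend (0.010, and 0.043 early).

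The 3 autophagy genes, SQSTM1 (the cargo receptor p62), ULK1 (the initiating kinase) and FYCO1 (an adaptor for autophagosome transport), were not called in any comparison. In si-miR-20a their differences from control were 0.10, 0.22 and 0.08 early and -0.02, 0.05 and 0.11 late. From a list of 23 other autophagy genes, 1 was higher and 3 lower early (4.79% and 7.17% of all probe sets). Late, 1 was higher and 4 lower (8.95% and 7.75%). ATG16L1, part of the LC3-conjugating complex, was the higher gene both times, at 0.61 and 0.47. Lower both times were ATG14 at -0.55 and -0.44, WIPI2 at -0.33 and -0.45 and OPTN at -0.31 and -0.38. In si-miR-671 against control, 0 were higher and 2 lower early (1.36% and 1.44%) and 0 higher and 5 lower late (7.04% and 8.37%). There ATG14 stood at -0.53, WIPI1 at -0.53, WIPI2 at -0.48 and OPTN at -0.44 late.

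Genes of the same circuits that were no members gave mixed calls against control. Beside them, 4.79% of all probe sets were called higher and 7.17% lower early, and 8.95% and 7.75% late. Of 17 measured further reported targets, 6 were higher and 5 lower early, with EPHA4 at 0.69 (a receptor tyrosine kinase), VEGFA at -0.65 (an angiogenic growth factor), CROT at 0.60 (a peroxisomal acyltransferase) and KAT2B at -0.56 (an acetyltransferase). Late, 5 were higher and 5 lower, with TXNIP at 0.84 (an inhibitor of thioredoxin), CROT at 0.80, EPHA4 at 0.73 and VEGFA at -0.59. Their median difference was -0.03 early and 0.06 late. Against si-miR-671, 6 were higher and 1 lower early (2.74% and 4.77% of all probe sets) and 5 higher and 0 lower late (0.92% and 0.206%). In si-miR-671 against control, 0 were higher and 4 lower early (1.36% and 1.44%) and 3 higher and 8 lower late (7.04% and 8.37%). There VEGFA stood at -0.26 early and -0.54 late, and KAT2B at -0.32 and -0.64. Of 20 measured genes of the RB and E2F circuit, 0 were higher and 5 lower early, among them CDKN1B at -0.59, which encodes the inhibitor p27, and CDK6 at -0.48. Late, 3 were higher and 6 lower, with cyclin E2 (CCNE2) at 0.83 and CDK2 at 0.49, and in si-miR-671 these stood at 0.84 and 0.47. In si-miR-671, 2 of the circuit's genes were higher and 1 lower early, with CDKN1B at -0.38. Late there, 3 were higher and 2 lower, with CDK6 at -0.33. Of 14 measured BMP and TGF-beta receptors and SMADs, 1 was higher and 4 lower early and 2 higher and 4 lower late, with the inhibitory SMAD7 at -0.50 and -0.55, SMAD1 at -0.50 and -0.55 and the receptor ACVR2A at -0.49 and -0.48. In si-miR-671 against control, 0 of these were higher and 1 lower early, and 1 higher and 6 lower late. There SMAD7 stood at -0.43 early and -0.60 late, and late SMAD1 at -0.60 and ACVR2A at -0.59. TGFBR2, which like SMAD7 is counted in both the target and the receptor lists, was higher in si-miR-20a than in control (0.33 early) and than in si-miR-671 (0.56 early, 0.47 late). Against si-miR-671 it was the 1 receptor-list gene called higher in each period. ACVR2A at -0.31 and SMAD1 at -0.29 were the 2 called lower early, and 0 were lower late. Of the RB and E2F circuit, 0 were higher and 4 lower early than in si-miR-671 (2.74% and 4.77% of all probe sets). These were cyclin A2 (CCNA2) at -0.65, E2F6 at -0.35, CDK6 at -0.33 and CDK4 at -0.26, and late 0 were called.

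The transcripts that carry the family's microRNAs were read on the same arrays. MIR17HG, the host of miR-17 and miR-20a, was not called between si-miR-20a and control, at -0.24 early and -0.08 late, and was lower than in si-miR-671 early, at -0.54 (adjusted p = 0.016). MCM7, the host of miR-93 and miR-106b and itself a replication helicase subunit, was not called between si-miR-20a and control, at 0.08 early and 0.01 late. In si-miR-671 against control, 0 of these 2 transcripts were called early, and 1 was higher and 0 lower late (7.04% and 8.37% of all probe sets). A host transcript's level does not give that of its mature microRNAs.

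EGF was compared with 0 min over the 3 transfections, 6 arrays against 6. At 30 min 2 members were higher and 0 lower, beside 0.725% and 0.0411% of all probe sets. At 60 min 3 were higher and 0 lower, beside 2.16% and 0.493%. At 120 min 8 were higher and 2 lower, beside 7.13% and 6.27%, or 9.49% and 8.46% of the brighter ones. The members' median change at 120 min was 0.01, as was that of all probe sets.

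WEE1 had the largest early response. Its levels ran from 8.33 to 8.60 with a median of 8.46 at 0 min, from 8.85 to 9.30 (median 9.06) at 30 min, from 9.12 to 9.55 (median 9.28) at 60 min and from 8.56 to 9.17 (median 8.75) at 120 min. WEE1 rose by 0.59 ± 0.0651 at 30 min, 0.84 at 60 min and 0.34 at 120 min (adjusted p = 6.6e-05, 6.1e-07 and 0.0025). The other 2 WEE1 probe sets peaked sooner, at 1.70 and 1.88 at 30 min, and then stood at 0.55 and 0.59 at 60 min and at -0.60 and -0.62 at 120 min, all called. The probe sets thus differed in sign at 120 min.

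**Figure D5:**
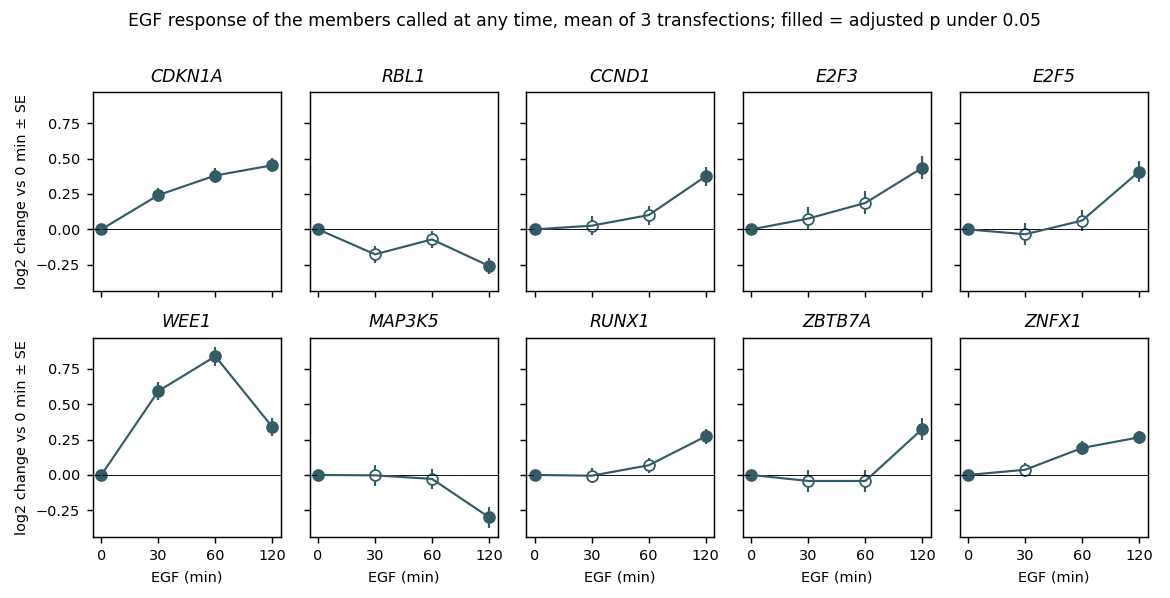
Log2 change from 0 min ± SE at 30, 60 and 120 min of EGF for the 10 members called at any time, mean over the 3 transfections with 6 arrays a time. Filled points passed an adjusted p of 0.05. WEE1 peaks at 60 min at 0.84, CDKN1A is filled at all 3 times, and RBL1 and MAP3K5 are filled below 0 at 120 min.

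CDKN1A rose by 0.24 at 30 min, 0.38 at 60 min and 0.45 at 120 min (adjusted p = 0.035, 0.00025 and 1.6e-05), and the 30 min call was kept only without replicate 1 of control at 0 min or of si-miR-671 at 30 min (otherwise 0.058 to 0.14). ZNFX1 rose by 0.19 at 60 min (adjusted p = 0.048, lost without each of the 12 arrays in turn, 0.053 to 0.16) and 0.27 at 120 min (adjusted p = 0.0015). At 120 min CCND1 rose by 0.37 (adjusted p = 0.0015), E2F3 by 0.44 (0.002), E2F5 by 0.41 (0.0021), ZBTB7A by 0.32 (0.0099) and RUNX1 by 0.27 (0.0023). RBL1 and MAP3K5 fell, with changes of -0.26 (adjusted p = 0.0089) and -0.30 (adjusted p = 0.013). These are means over transfections whose levels took different courses. From 0 to 120 min RBL1 went from 7.13 and 7.22 to 6.78 and 6.66 in control. It went from 7.57 and 7.43 to 7.11 and 7.27 in si-miR-671, and from 7.31 and 7.38 to 7.23 and 7.44 in si-miR-20a. CCND1 was flat in si-miR-20a and rose in control and si-miR-671. Whether the change from 0 to 120 min differed between transfections was not tested. Without the si-miR-671 arrays the MAP3K5 change was -0.18 (adjusted p = 0.27), and those of RBL1, CCND1, ZBTB7A and ZNFX1 at 120 min, of CDKN1A at 30 min (adjusted p = 0.75) and 60 min (0.27, adjusted p = 0.12) and of ZNFX1 at 60 min (adjusted p = 0.30) were not called. MIR17HG rose over the same times, by 0.57 at 60 min (adjusted p = 0.0029) and 0.84 at 120 min (adjusted p = 2.4e-05). MCM7, the other host transcript, was called lower at 120 min and was not called at 30 or 60 min.

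E2F3 and RBL1, whose means over the 3 transfections moved in opposite directions at 120 min, both carry E2F-type motifs before their start sites. The letters searched on both strands were TTTGGCGC, TTTGGCGG, TTTCCCGC and TTTCGCGC, in windows from 250 bases before to 50 bases after each start. They were found in 1177 of 35116 RefSeq promoters, 3.35%, and in 4 of the 38 promoters listed for 25 members, the others being of ZBTB4 and TUSC2. By gene these were 4.05% of all with an entry and 4 of the 25. The motifs are in capitals below, on GRCh38.p14, at chr6:20401629-20401928 on the plus strand for E2F3 and chr20:37095948-37096247 on the minus strand for RBL1. A match describes the letters in these windows and does not show binding.
E2F3 promoter: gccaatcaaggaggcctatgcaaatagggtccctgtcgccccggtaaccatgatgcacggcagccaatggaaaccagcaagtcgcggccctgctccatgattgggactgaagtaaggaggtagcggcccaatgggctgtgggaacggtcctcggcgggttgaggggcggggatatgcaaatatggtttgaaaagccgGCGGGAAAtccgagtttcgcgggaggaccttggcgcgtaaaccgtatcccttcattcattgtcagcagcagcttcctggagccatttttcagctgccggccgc
RBL1 promoter: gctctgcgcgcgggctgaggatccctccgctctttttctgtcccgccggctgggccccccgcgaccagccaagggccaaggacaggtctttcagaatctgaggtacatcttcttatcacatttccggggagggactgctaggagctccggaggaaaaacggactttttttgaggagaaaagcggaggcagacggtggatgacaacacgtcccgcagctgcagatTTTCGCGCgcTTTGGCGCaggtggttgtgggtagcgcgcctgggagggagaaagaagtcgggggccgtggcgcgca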

How the data were processed

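The authors deposited 1 log2 value per probe set and array, made with Affymetrix Expression Console per the submitters' processing notes. For its version, summarisation and normalization: not given in the sources used here. Base 2 was inferred from array maxima of 13.0 to 13.2. Values of 33297 probe sets, 0 of them missing, were used as deposited. Of these, 19460 carried exactly 1 symbol in a probe-to-gene table and were tested, 1754 carried several and 12083 were unnamed here.

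limma 3.58.1 (R 4.3.3) fitted 1 mean per group over the 24 arrays and eBayes (12 residual degrees of freedom, 2.57 prior). Benjamini-Hochberg adjustment ran over all tested probe sets, errors are standard errors of the fit, and the scripts were tested on simulated data. Tables were made with Python 3.11.15 and pandas 2.3.3. Each gene was read from its probe set with the highest mean. The members and gene lists were chosen with earlier results of these data known. By rule, every array was given for members called the same way against control and si-miR-671 in a period, or called for a change from early to late, and RBL1, MAP3K5 and some other values were chosen after they were seen. Of each other list, up to 4 called genes were named, from the largest difference down, and genes of the circuit and receptor lists against si-miR-671 likewise.

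The replicate numbers gave no pairing that held over all groups. Over 66 pairs of groups the correlation of replicate differences ran from -0.57 to 0.55, median 0.063, with 30 pairs above 0.1. Arrays of some groups thus shared differences whose source was not tested, and the main fit treats the arrays as independent. Alternatives covered the replicate block, other normalization, dim probe sets, array weights, an intensity trend, the compared arrays alone, single times, each array left out, a stricter threshold and other probe sets per gene.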

Additional observations from a re-analysis of the deposited data

Results flagged for a closer look

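HIF1A was singled out because its difference between si-miR-20a and si-miR-671 itself differed between periods: the late difference exceeded the early one by 0.37 on the log2 scale (limma, adjusted p = 0.018), with -0.18 early and 0.19 late. Across the alternatives that leave out 1 array the call was lost without 4 of the 16 arrays and kept without each of the other 12.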

How the results depend on the processing

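Each number below is the count of members called in the comparison named. Brackets after a count hold the number of all probe sets called there, of 19460 unless another total is given. With the replicate number as a block, si-miR-671 against control early had 0 (536). WEE1 against si-miR-671 late (adjusted p = 0.059) and ZNFX1 at 60 min of EGF (adjusted p = 0.054) were lost, with 0 other named calls lost. With dim probe sets left out, si-miR-20a against si-miR-671 had 11 early (2014 of 11905) and 3 for the change from early to late (818 of 11905). With an intensity trend it had 4 for that change (612). With all 33297 probe sets tested, si-miR-20a against si-miR-671 late had 2 (115), si-miR-671 against control 0 early (458) and 5 late (3069), and EGF at 30 min 1 (204). With array weights, si-miR-20a against si-miR-671 late had 1 (102). Fitted on the compared arrays alone, si-miR-20a had 3 against control late (854). Against si-miR-671 it had 0 early (0), late (2) and for the change (7). There si-miR-671 against control had 0 early (164) and 3 late (1725), and EGF at 30 min had 1 (126). These fits have fewer arrays to estimate the spread. Without the si-miR-671 arrays, an alternative chosen after seeing the data, si-miR-20a against control late had 7 (2507). There EGF had 1 at 30 min (78), 1 at 60 min (265) and 5 at 120 min (1258). At an adjusted p under 0.01, si-miR-20a had 7 against control late, 1 against si-miR-671 late and 0 for the change, si-miR-671 against control had 0 early and 3 late, and EGF at 30 min had 1.

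Single times gave fewer member calls in the comparisons that follow, with fewer arrays, and brackets are as above. Without 0 min or without 30 min, si-miR-20a against si-miR-671 early had 3 (285 and 103), si-miR-671 against control early had 0 (89 and 105) and the change had 0 (9 and 10). Without 60 min, si-miR-20a late had 6 against control (1958) and 3 against si-miR-671 (419), and si-miR-671 against control had 3 (1086). Without 120 min these were 6 (1205), 1 (18) and 4 (1592), and the change had 0 (14). The WEE1 change at 120 min of EGF reversed to -0.62 (adjusted p = 6.1e-05) with its most variable probe set. Leaving out 1 array at a time gave 7 to 8 early and 7 to 11 late for si-miR-20a against control, 5 to 8 early, 1 to 9 late and 0 to 4 for the change against si-miR-671, and 0 to 0 early and 4 to 7 late for si-miR-671 against control. The 9 and the 4 came without replicate 1 of si-miR-20a at 120 min, and 1 without replicate 1 of si-miR-671 at 60 min or either of its replicates at 120 min. EGF gave 1 to 2 at 30 min, 2 to 2 at 60 min and 10 to 12 at 120 min. The number of all probe sets called also shifted widely between the fits that leave out 1 array, so the members' shifts are not particular to them. The causes of these shifts were not tested. Over single members, the alternatives that kept all arrays of a group or dropped a whole group left 3622 values on their side of the threshold with the same sign, while 36 became called and 138 lost their call.

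With 2 arrays a group, few small differences can pass, and array levels show no counting depth.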
